A study of Mus musculus with 6 samples.

Results

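The array carried probes for noncoding loci that have no gene symbol. Each is known only by the interval it occupies in the mouse build mm9, written as a chromosome, start, end and strand letter (F or R). Of 55681 distinct probes, 16194 were named in this way. They covered 3543 intervals, or 4610 combinations of an interval and a strand, which merge into 2226 regions where intervals overlap. The loci described here were selected on brightness, as the 5682 probes that cleared the background on every array of at least 1 genotype (3 arrays each), a mark that the scanner software sets per spot. These probes, called members below, lay in 2289 intervals and 1588 merged regions, and 2802 were on strand F, 2874 on strand R and 6 had a name without a strand letter. Since brightness chose the members, their brightness is a description, and a member bright in 1 genotype only had to differ between the genotypes. For this reason the counts are also given for the 5031 members that were bright on all 6 arrays.

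Much of a mammalian genome outside annotated genes is transcribed at low levels, and many such domains were first found from chromatin marks of active promoters and transcribed bodies rather than from cloned transcripts. A domain of this kind gives an interval and often no strand, which is why an array can carry probes against both strands of one locus. In liver, some long noncoding RNAs act in lipid and bile acid metabolism or in the interferon response, while most have no known function. No gene annotation or genome of build mm9 was used here, so whether an interval lies in a gene, an exon or an intron is not given, and no sequence is shown.

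The study compared liver RNA of male L1-Tg and WT mice fed a control-fat diet (CFD), with 3 arrays per genotype, to characterize differences before any high-fat diet. L1-Tg mice are hemizygous for B6;D2-Tg(APOE-NPC1L1)20Lqyu/J, in which the APOE promoter drives human NPC1L1, a cholesterol importer, in hepatocytes, and they had been backcrossed for at least 8 generations to C57BL/6J. WT mice were littermates without the transgene, and the methods give an age of 6 to 12 weeks for the males of the study as a whole. Each array held RNA pooled from 2 or 3 mice, so that the spread given below is between pools, and the transgenic mice were of 1 line.

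Between 53.1% and 59.2% of an array's probe spots cleared the background, 0 spots were saturated, and the 75th percentile of signal lay between 297 and 378 intensity units. All 6 arrays lay on 1 slide and were scanned once, with WT in row 1 and L1-Tg in row 2, so slide row and genotype cannot be told apart. In either row the slide column equalled the replicate number. The transgene is human, and the mouse Npc1l1 probe, which was well above background on 1 L1-Tg and 2 WT arrays, checks no label. All 9 hepatocyte markers were bright on every array, with a summed log2 level of 12.65 to 12.91 in L1-Tg and 12.76 to 12.95 in WT mice. Markers of other cells differed in part between the genotype means, but the summed ranges of the genotypes overlapped for every cell type. The smallest limma adjusted p of any marker was 0.425, for the stellate marker Reln. The 6 Kupffer cell markers were all higher in L1-Tg mice (summed log2 level 6.72 to 7.00 against 5.92 to 6.96), as were the 5 neutrophil markers (2.07 to 2.97 against 1.20 to 2.36), of which 3 were bright on all arrays. The 7 exocrine pancreas markers were all higher as well (3.46 to 6.62 against 3.32 to 3.52), of which 3 were bright on all arrays. The 4 erythroid markers on the array were higher too (6.61 to 7.65 against 6.65 to 6.84), of which 3 were bright on all arrays and 1 on none. Lymphocyte, stellate, endothelial and cholangiocyte markers lay in both directions. The part of these cells in the differences below was not tested, and in bulk RNA fewer cells of a type and less RNA per cell cannot be told apart.

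Position-named loci were detected less often than annotated transcripts. Of the position-named probes, 35.1% met the brightness rule, against 66.7% of 27136 probes for RefSeq messenger RNAs, 41.4% of 1549 probes for RefSeq noncoding RNAs and 46.5% of 10802 other probes. On single arrays the share of position-named probes well above background was 42.6%, 38.0% and 37.5% in L1-Tg 1, 2 and 3 and 34.9%, 41.0% and 37.7% in WT 1, 2 and 3. The genotypes overlapped. The mean was 39.4% ± 2.8 (SD, n = 3 pools) in L1-Tg and 37.9% ± 3.1 in WT mice, a difference smaller than either SD. These marks also chose the members, so no test is given for them. Of the non-members, 8002 probes were well above background on 0 arrays and 2510 on at least 1.

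**Figure D1:**
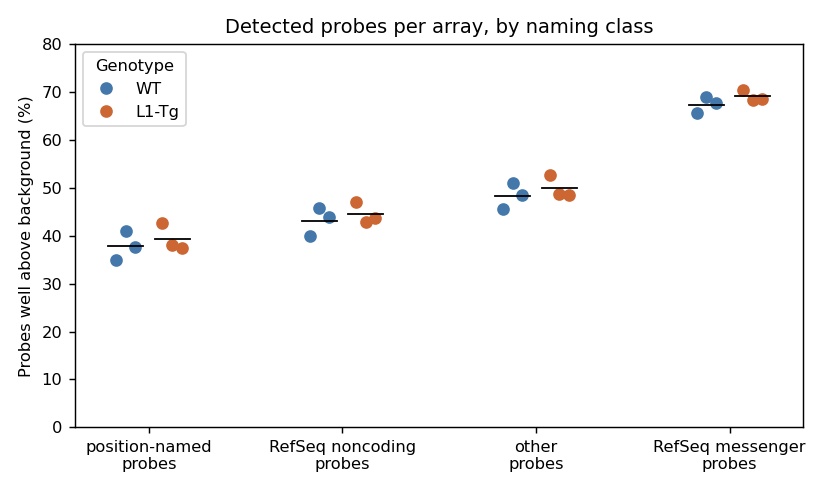
Percent of probes well above background on each array (y axis), by the kind of name the probe carries (x axis). Points are arrays, blue for WT and orange for L1-Tg, and black lines are means of 3 arrays. Position-named probes lie between 34.9% and 42.6% with the genotypes overlapping, below every RefSeq messenger value (65.5% to 70.3%).

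Members were mostly dim. Their median log2 signal, relative to the 75th percentile of all probes on the array, was -2.07, -2.13 and -2.22 in the L1-Tg pools and -2.03, -2.00 and -2.06 in the WT pools. Between 20.3% and 21.9% of members exceeded that percentile, against 53.6% to 54.4% of the RefSeq messenger probes that met the same rule. A probe's signal depends on its own binding as well as on the amount of RNA, so that no order of loci follows from it. Among members 29.4% had a mean below -3, in bins of 164 below -4 and 1506 between -4 and -3, whereas 1193 or 21.0% were at 0 or above. The spread between pools was wider at dim probes, with a median SD of 0.38 below -4 and 0.14 at 0 and above.

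The members just inside the rule were dim and were bright in only 1 genotype. The dimmest was a probe for chr1:85117750-85129200 (F), with log2 levels of -3.50, -4.26 and -3.77 in L1-Tg and -6.27, -6.70 and -5.27 in WT mice, and the next were for chr6:47687025-47728525 (R) and chr1:175654606-175672031 (F). The 3 brightest probes outside it, by the mean over all arrays, were for chr11:5377054-5377725 (R), chr8:26870059-26870530 (F) and chr2:154244616-154245900 (R). The probe on chromosome 8 was at 0.08, -6.08 and -0.38 in L1-Tg and -4.79, -6.73 and -0.41 in WT mice, which varied within each genotype and was well above background on 3 arrays in all.

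The 5 loci with the brightest probes differed little between the genotypes. At chr1:193875525-193978800 (R) the log2 level was 9.65, 9.69 and 9.23 in L1-Tg and 9.86, 9.95 and 9.76 in WT mice, with every L1-Tg pool below every WT pool and a log2 difference of -0.33 (limma adjusted p = 0.581). The other 4 were chr12:73838608-73862621 (R), chr14:78924115-78938125 (F), chr17:39982023-39983277 (F) and chr6:83368261-83407280 (F). Their means lay between 8.67 and 9.02 in either genotype and their differences between -0.16 and 0.01.

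Members were found on all autosomes and on X, the chromosomes that carried position-named probes. The share of probes that were members ran from 26.9% on X, 27.8% on chromosome 10 and 28.7% on chromosome 9 to 40.7% on chromosome 14 and 42.1% on chromosome 17. Longer intervals held members more often, since the median length was 10262 bp for intervals with a member and 2676 bp for the 1254 intervals without one, but longer intervals also carried more probes. Per probe the share was 29.7% in intervals under 1 kb and between 34.1% and 36.6% in the longer classes. The shares on the F and R strands were 34.3% and 35.9%.

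Few members were past the threshold for a difference between the genotypes. With limma and a Benjamini-Hochberg adjustment over the 29433 probes tested, at a threshold of 0.05, the L1-Tg level was higher at 8 members and lower at 0. Over all probes tested 0.0849% were called higher and 0.0068% lower, and among members the share called higher was 0.141%. At an unadjusted p under 0.05 there were 171 higher and 350 lower members, or 3.01% and 6.16%, against 4.33% and 4.43% of all probes. Among members bright on all 6 arrays these were 114 higher and 314 lower, or 2.27% and 6.24%. A test with equal variances and no moderation gave 0 members after adjustment and 389 at an unadjusted p under 0.05, or 6.85%, against 0% and 8.04% of all probes. Of the 8 members called, 7 were bright on all 6 arrays.

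The largest difference was at chr13:99472132-99472291, an interval of 160 bp with 2 probes on strand F. One probe had a log2 level of 4.43, 4.35 and 5.05 in the L1-Tg pools and -2.47, -2.58 and -2.47 in the WT pools. The pools of each genotype lay close together and far from the other genotype. L1-Tg exceeded WT mice by 7.11 on the log2 scale (standard error 0.20, limma adjusted p = 3.2e-04). The second probe of the same 160 bp was bright on all 6 arrays and differed by 0.04.

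At chr7:143759700-143760147 (R), an interval of 448 bp, a probe had a log2 level of 0.21, 0.40 and 0.89 in the L1-Tg pools and was well above background on no WT array, where the values were -6.17, -5.86 and -6.31. The signal was at least 27.1-fold higher in L1-Tg mice. The brightness rule let this probe in through the L1-Tg arrays alone, so its adjusted p of 4.0e-04 in limma is a description. In the fit without a filter, where its entry did not depend on brightness, the limma adjusted p was 0.00438. This limit sets the L1-Tg mean against the dimmest signal that still cleared the background on each WT array, wherever the probe was dimmer than that, and the other limits below were formed in the same way. The other 2 probes of the interval were well above background on 0 arrays. A normexp background correction moved the fitted log2 difference of the called probe from 6.61 to 2.96, with no change in the call.

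At chr1:94608820-94634671 (F) a probe had a log2 level of 2.70, 2.75 and 3.40 in L1-Tg and -1.99, -1.97 and -1.92 in WT mice. All L1-Tg pools were far above all WT pools, with a log2 difference of 4.91 (standard error 0.20, limma adjusted p = 0.00113). The other 4 probes on the same strand were well above background on 0 arrays. The 2 members on strand R differed by -0.10 and -0.12.

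**Figure D2:**
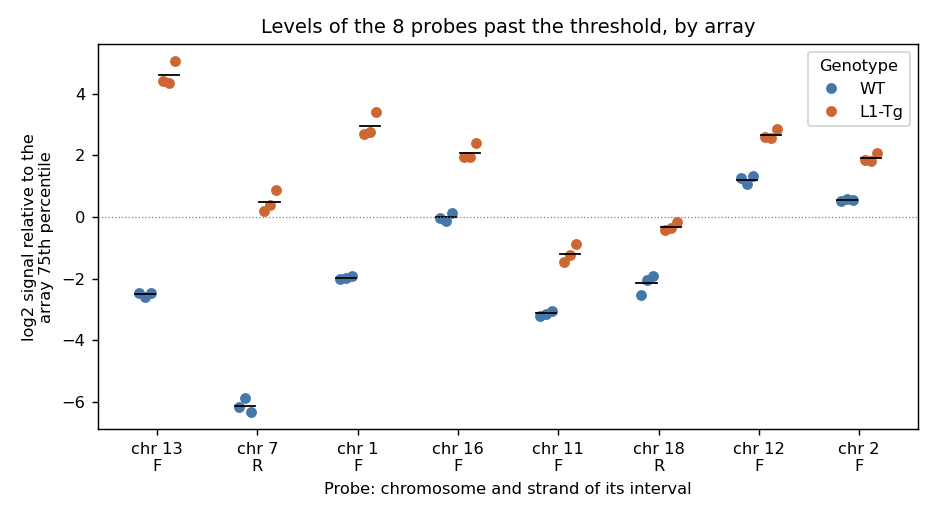
Log2 signal relative to the array 75th percentile (y axis) of the 8 members past the adjusted threshold, by the chromosome and strand of their interval (x axis). Points are pools, blue for WT and orange for L1-Tg, and black lines are means of 3. The L1-Tg pools lie above the WT pools at all 8 probes, and the gap runs from 7.11 on chromosome 13 to 1.36 on chromosome 2; the WT points on chromosome 7 were not well above background.

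The other 5 probes past the threshold differed less. At chr16:59557120-59602070 (F) the log2 level was 1.95, 1.94 and 2.40 in L1-Tg and -0.03, -0.11 and 0.12 in WT mice, which is 2.10 apart (limma adjusted p = 0.0136). At chr2:155298877-155303251 (F) it was 1.87, 1.82 and 2.09 against 0.54, 0.59 and 0.56, a difference of 1.36 (limma adjusted p = 0.0162). The genotypes did not overlap at either probe, and the WT pools at the second lay close together. At chr11:50994911-51050704 (F) the level was -1.47, -1.23 and -0.87 in L1-Tg and -3.20, -3.13 and -3.04 in WT mice, which is 1.94 apart (limma adjusted p = 0.0214). At chr12:83271350-83357214 (F) it was 2.60, 2.58 and 2.86 against 1.26, 1.06 and 1.32, a difference of 1.46 with the same adjusted p. At chr18:84735774-84760824 (R) it was -0.41, -0.35 and -0.17 against -2.51, -2.02 and -1.91, a difference of 1.84 (limma adjusted p = 0.0348). At each of these loci the L1-Tg pools were above the WT pools with no overlap.

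These 5 calls were lost in most or all fits with 1 array left out. The probes on chromosomes 13, 7 and 1 passed with any 1 array left out, whereas the probes on chromosomes 16, 11 and 18 passed in 1 of 6 such fits each and those on chromosomes 2 and 12 in 0. The count of members called was 3 without L1-Tg 1, L1-Tg 2, WT 2 or WT 3, 5 without L1-Tg 3 and 6 without WT 1. The highest adjusted p over these fits was 0.00521, 0.00831 and 0.0162 for the first 3 probes and 0.0992 to 0.214 for the other 5.

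The other members at the called loci did not share the difference. The 8 intervals held 24 further members beside the called probes, and their log2 differences ran from -0.77 to 0.30. At chr16:59557120-59602070 the other 4 F members differed by -0.12 to 0.30 and the 5 R members by -0.77 to -0.10, and at chr18:84735774-84760824 the other 3 R members by -0.13 to 0.28. At chr2:155298877-155303251 the called probe was one of 3 members on the strand and the others differed by -0.29 and -0.20. Within 1 Mb of the called intervals, members of other intervals reached no adjusted p below 0.40. By its brightest probe alone, a merged region was called in 5 of the 8 cases.

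**Figure D3:**
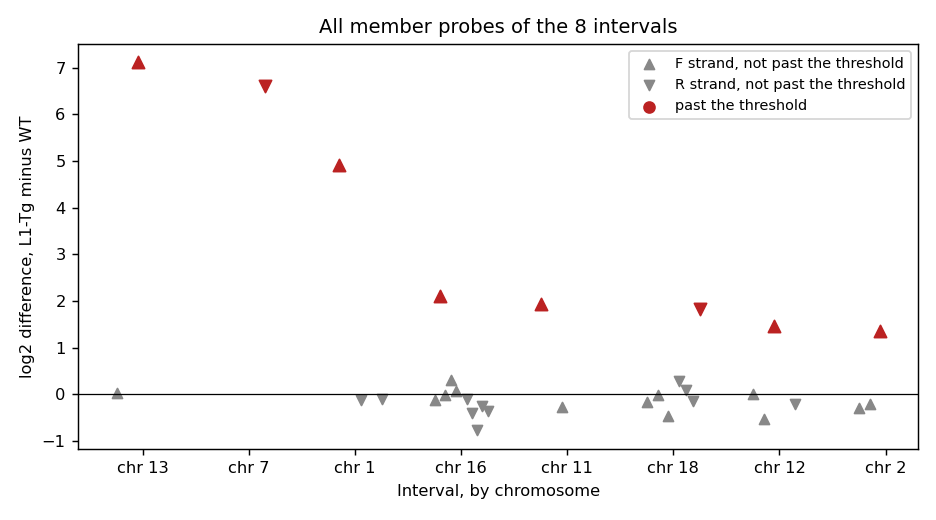
Log2 difference, L1-Tg minus WT (y axis), of every member probe in the 8 intervals with a called probe (x axis, by chromosome). Triangles pointing up are strand F and down strand R, red where the probe passed the adjusted threshold and grey where it did not. Each interval shows 1 red point between 1.36 and 7.11, and the grey points lie between -0.77 and 0.30.

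Members had a slightly lower level in L1-Tg than in WT mice on this scale. The median log2 difference was -0.08 over members and -0.09 over members bright on all 6 arrays, compared with -0.03 over all probes tested and -0.01 over RefSeq messenger probes, and 66.0% of members were below 0. Each member's log2 level minus its mean over the WT arrays had a median of -0.02, -0.07 and -0.15 in L1-Tg 1, 2 and 3. In WT 1, 2 and 3, which set this reference, it was 0.02, 0.00 and -0.03. L1-Tg 3 thus lay lowest, and L1-Tg 1 lay within the WT range. Relative to all probes tested, the members' median stood at -0.05 with the 75th percentile, the array median, no scaling or the deposited matrix, at -0.04 after quantile normalization and at -0.03 after normexp. The array median in place of the 75th percentile moved the median of all probes up by 0.11, and that of the members to 0.03.

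The genotypes did not overlap for 258 members with every L1-Tg pool higher and for 579 with every L1-Tg pool lower. These were 4.54% and 10.2% of members, against 6.99% and 8.62% of all probes tested. Among members bright on all 6 arrays the counts were 193 and 545, or 3.84% and 10.8%. The share that was lower moved with the scaling, for members and for all probes tested alike. Of the members without overlap, 69.2% were lower with the 75th percentile, against 55.2% of all probes without overlap. The shares were 75.8% against 60.1% after normexp, 52.1% against 41.7% without scaling and 51.7% against 36.4% in the deposited matrix. They were 49.5% against 37.0% after quantile normalization and 32.5% against 19.4% with the array median. The members' share was the higher one under each of these scalings, a difference that was not tested. With 1 array left out, the counts rose as smaller groups overlap less, to between 382 higher without L1-Tg 1 and 504 higher without WT 3. The lower members were then 1229, 936 and 726 without L1-Tg 1, 2 and 3 and 908, 961 and 1226 without WT 1, 2 and 3. The higher members were 400 and 464 without L1-Tg 2 and 3 and 502 and 388 without WT 1 and 2. The shares over all probes tested were not counted with 1 array left out, so nothing particular to members follows from these counts.

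The methods of the study used a difference index, the difference of the mean normalized intensities divided by the sum of their SDs, with a limit of 0.7. Here it was computed on linear signals divided by the 75th percentile of the array. By this index 416 members were higher and 951 lower, or 7.32% and 16.7%, against 11.4% and 14.7% of all probes tested. Among members bright on all 6 arrays, 322 were higher and 895 lower, or 6.4% and 17.8%. Over all members the lower count was 1521 without L1-Tg 1 and 1491 without WT 3, where the share over all probes tested was not counted. Of the members past the index 69.6% were lower with the 75th percentile, against 56.4% of all probes past it. The shares were 76.2% against 60.6% after normexp, 53.4% against 38.1% in the deposited matrix and 52.7% against 38.4% without scaling. They were 49.3% against 38.8% after quantile normalization and 32.1% against 20.8% with the array median. In the deposited matrix, 567 of 5682 members were higher and 649 lower by the index, against 4555 and 2802 of 29433 probes tested. A difference of at least 2-fold was seen for 39 higher and 93 lower members, or 0.686% and 1.64%, against 0.962% and 0.897% of all probes. Among members bright on all 6 arrays, 19 were higher and 64 lower by at least 2-fold, or 0.378% and 1.27%.

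Many of the large lower values came from a single array. WT 2 exceeded every other array by more than 2-fold at 172 of the 5675 members with a value on all arrays, or 3.03%. The same was seen at 24 members for WT 1, 18 for WT 3 and 1 to 3 for each L1-Tg array, and at 1.28% of RefSeq messenger probes for WT 2. At these 172 probes the median level was 1.75 in WT 2 and -0.83 for the mean of the other 5 arrays. The probes belonged to 169 names, of which 3 held more than 1 of them. The 230 other members of the same names showed a median of 0.06 for WT 2 minus the other arrays. The 172 probes lay throughout the array, with 13 to 30 in each of 8 bands of rows and 15 to 25 in each of 8 bands of columns.

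Among members bright on all 6 arrays without overlap, the 3 largest negative differences had this pattern. At chr12:52880692-52933444 (F) the log2 level was -3.62, -3.60 and -4.12 in L1-Tg and -3.44, 1.33 and -3.46 in WT mice, and at chr11:3538125-3554450 (R) it was -3.70, -3.95 and -3.67 against -2.94, 0.61 and -3.61. In either case WT 2 stood alone and the remaining 5 arrays were close to the floor. At chr7:114386535-114443910 (F) the level was -0.78, -0.79 and -0.78 in L1-Tg and -0.51, 2.85 and -0.69 in WT mice. The log2 differences of these 3 were -1.92, -1.79 and -1.33 with limma adjusted p of 0.664, 0.641 and 0.672. Without WT 2 the differences were -0.33, -0.50 and -0.18. Of 19 members that were bright on all arrays, did not overlap and were at least 2-fold lower, WT 2 stood alone at 12. The median of the 19 went from -1.14 to -0.62 without WT 2, and 4 were still at least 2-fold lower. One of these was chr8:126268510-126290810 (R), at -3.32, -3.45 and -3.70 against -2.93, -2.48 and -1.37, with a log2 difference of -1.23, and of -1.34 without WT 2. Of the 19 members that were at least 2-fold higher by the same rule, 1 had an L1-Tg array standing alone.

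Some members were bright in all pools of 1 genotype and in none of the other. Of the 5682 members, 43 were bright on 3 L1-Tg and 0 WT arrays, and 4 on 3 WT and 0 L1-Tg arrays. The other classes leaned the same way. Among probes meeting the rule, the counts were 73 and 4 of 18093 RefSeq messenger, 2 and 1 of 641 RefSeq noncoding and 23 and 0 of 5019 other probes. Since the rule let in such members through the bright genotype, these counts carry no test. The dimmest signal that still cleared the background was -3.98 on WT 1 and between -4.60 and -4.39 on the other arrays. The part of this floor in the counts was not tested. Most of the 43 were near the floor, with a median limit of at least 1.19-fold, and 2 reached 2-fold. These were the probe on chromosome 7 described above and one for chr7:134620707-134626739 (R). The latter was at -3.10, -3.20 and -3.27 in L1-Tg and -4.34, -4.81 and -4.97 in WT mice, at least 2.10-fold higher. Its level varied little between L1-Tg pools and the genotypes did not overlap, but the 4 other R members of the interval differed by -0.78 to 0.01. Of the 4 lower members, 2 reached 2-fold. At chr9:31834945-32015745 (R) the level was -5.62, -5.33 and -4.69 in L1-Tg and -3.05, -0.77 and -3.92 in WT mice, at least 3.88-fold lower, with WT 2 again the highest. This limit was 2.07-fold without WT 2 and 6.17-fold without WT 3. At chr15:97864594-97867907 (R) it was -5.76, -4.58 and -4.72 against -1.98, -3.37 and -3.90, at least 2.74-fold lower, and 1.87-fold without WT 1.

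Probes for one locus were detected together only in part. Of the 3920 names with 2 or more probes, 449 had all probes as members, 2141 had some and 1330 had none. Of the 1067 intervals probed on both strands, 574 had members on both, 179 on F only, 195 on R only and 119 on neither. Detection that set the strands apart completely was uncommon, since 39 intervals had every F probe and no R probe as a member and 39 the reverse. Every probe of both strands was a member in 38 intervals.

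The genotype differences of 2 probes for the same name were only loosely related. Over 1431 names, the 2 brightest members had a Pearson's r of 0.25 and a Spearman's rho of 0.28, and 65.5% had the same sign. The share with the same sign was 60.0% after quantile normalization and 61.4% with the array median, where fewer members were below 0. The correlation is across probes that share the 6 arrays, it is a description and carries no test. With both probes bright on all 6 arrays, r was 0.20 over 1261 names. For names whose dimmer probe was at -1 or above, r was 0.33, rho was 0.50 and 73.3% had the same sign (356 names). With a dimmer probe between -3 and -1 they were 0.18, 0.23 and 64.1% (590 names). With a dimmer probe under -3 they were 0.30, 0.22 and 61.4% (485 names), so that r did not rise steadily with brightness. For 3130 RefSeq messenger accessions with 2 such probes, r was 0.55, rho was 0.48 and 68.2% had the same sign.

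Large differences were seldom shared between probes. In 33 names the brightest member differed by at least 2-fold, and the second did so in the same direction in 6 and had the opposite sign in 13. Between strands of 574 intervals, where the members of a strand were averaged, r was 0.09 and rho 0.13, and 63.2% had the same sign. Over 503 intervals with members bright on all 6 arrays r was 0.03.

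**Figure D4:**
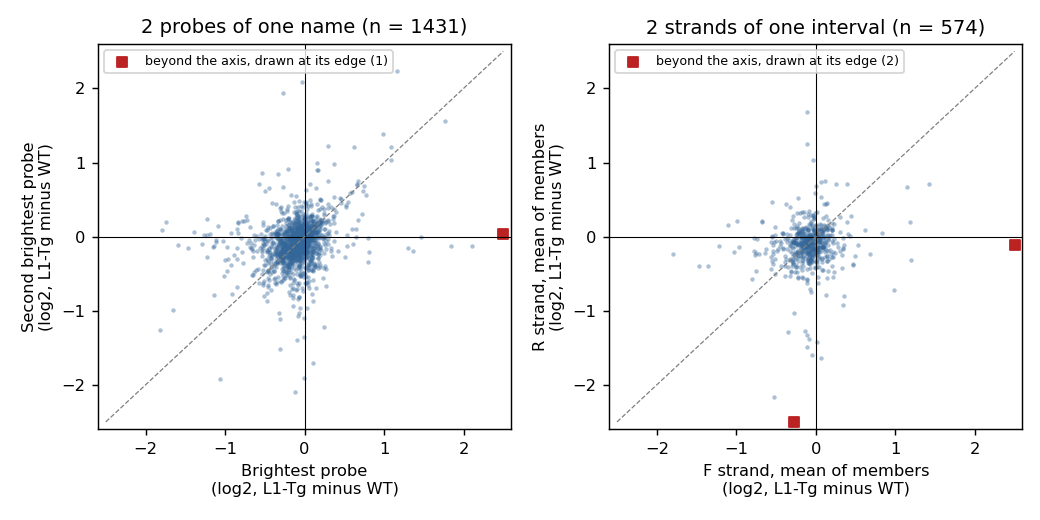
Log2 differences, L1-Tg minus WT, of the 2 brightest members of one name (left, 1431 names) and of the mean of F and of R members of one interval (right, 574 intervals). Each point is a name or an interval, the dashed line marks equal differences, and red squares lie beyond the axis limit of 2.5 and are drawn at its edge (1 at the left, 2 at the right). Most points gather slightly below 0 on either axis, and points far out on one axis mostly lie near 0 on the other (r = 0.25 and 0.09).

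The 5 intervals with the most members show how probes of one locus varied. At chr11:95627874-95640824, 18 of 19 probes were members, on both strands. The 9 F members differed by -0.01 to 0.20 and the 9 R members by -1.79 to 0.25, and the mean of the R members was -1.61, -1.77 and -2.01 in L1-Tg against -1.59, -1.42 and -1.46 in WT mice. The lowest R member was well above background on 3 WT and 0 L1-Tg arrays, at least 1.87-fold lower, and a second R member, above background on 2 L1-Tg and 3 WT arrays, differed by -1.53 (limma adjusted p = 0.407). The remaining members of this interval lay between -0.01 and 0.25. At chr16:43623581-43642715, with 17 members of 20 probes, the 10 F members were divided into 5 above and 5 below 0, while the 7 R members had differences below 0, with a median of -0.31 and no member without overlap. At chr7:99879368-99889978, with 17 members, the F median was -0.55 and the R median -0.13, and at chr17:26911397-26917047, with 16 members, they were -0.02 and 0.18. At chr5:74487385-74497428, also with 16 members, members of both strands were mostly lower. All 9 F members and 6 of 7 R members were below 0, with medians of -0.39 and -0.41. The mean of its F members was 0.43, 0.55 and 0.25 in L1-Tg and 0.79, 0.77 and 0.81 in WT mice, and that of its R members was -1.70, -1.63 and -1.78 against -1.41, -1.51 and -1.42. The genotypes did not overlap in the mean of either strand, and the smallest limma adjusted p of a member was 0.407.

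At some loci all members had the same sign. Of 798 intervals with at least 3 members, 59 had every member higher, 230 every member lower and 509 a mixture. These counts are on the 75th percentile scale, where 66% of members and 57% of all probes tested were below 0. With the array median the members' median difference was 0.03, and the intervals were not counted on that scale. The genotypes did not overlap at any member in 3 higher and 2 lower intervals, and none of these members passed the adjusted threshold. At chr4:149445201-149445902 (F) the mean of 3 members was -1.27, -1.20 and -1.85 in L1-Tg and -3.86, -3.05 and -2.03 in WT mice. The 3 probes differed by 1.31, 1.56 and 1.76, with a smallest limma adjusted p of 0.461, and WT 3 lay close to the L1-Tg pools. At chr1:175653557-175671940 (R) the mean was 0.60, 0.38 and 0.49 against -0.49, -0.41 and 0.29, and the probes differed by 0.66 to 0.71. At chr2:156213798-156216885 (R) it was 3.90, 3.97 and 4.09 against 3.73, 3.75 and 3.82, and the probes differed by 0.21 to 0.24. These intervals were picked because every member had the same sign without overlap, so the agreement in sign between their probes was fixed by the choice. The lower ones were chr18:36452279-36454825 (F), with a median of -0.46, and chr4:135911688-135915355 (F), with a median of -0.31, where the brightest probe had WT 2 alone at 2.61.

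The interval on chromosome 1 belonged to a stretch with many higher members. This stretch and the regions named with it were chosen after their values were seen and carry no test. Between 175 and 180 Mb of chromosome 1, 14 of 20 members did not overlap and were higher, and 0 were lower. They came from overlapping intervals at chr1:175653557-175672031, where 12 of 12 members were higher and 8 did not overlap, and from chr1:175705225-175717250, where 6 of 7 were higher and 6 did not overlap. The median log2 difference was 0.69 in the first region and 0.78 in the second, and the smallest limma adjusted p were 0.41 and 0.39. In the first region the mean of the members was -0.33, -0.55 and -0.44 in L1-Tg and -1.31, -1.26 and -0.71 in WT mice, and in the second it was -0.46, -0.78 and -0.41 against -1.30, -1.12 and -0.97. The genotypes did not overlap in either mean. On the same chromosome, chr1:163508244-163586072, had 12 of 13 members higher, with a median of 0.43.

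Runs of lower members were found as well. Of 442 windows of 5 Mb with a member, 28 held 5 or more lower members without overlap and 8 held 5 or more higher ones. On this scale 10.2% of members were lower and 4.54% higher without overlap, against 8.62% and 6.99% of all probes tested. With the array median 229 members were lower and 476 higher, and the windows were not counted on that scale. Over both strands of chr5:74487385-74497428, 15 of 16 members were lower and 9 of these did not overlap, with a median of -0.40. In overlapping intervals at chr14:62254361-62307496, 11 of 12 members were lower and 8 did not overlap, with a median of -0.47. At chr18:36449530-36456800, 16 of 17 members were lower and 8 did not overlap, with a median of -0.33. Probes of overlapping intervals can measure one transcript, so the members of such a region are not independent measurements.

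By chromosome, higher and lower members were unevenly divided. Chromosome 1 had 40 higher and 35 lower members without overlap, and on each other chromosome the lower ones were more numerous. Of the 40, 14 came from the stretch between 175 and 180 Mb described above. Over all probes tested, 6.99% were higher and 8.62% lower without overlap. Chromosome 18 had the most members without overlap in either direction together, 22.0% of 186, and chromosome 16 the fewest, 8.77% of 228. On chromosome 19, 1 of 124 members was higher and 13 were lower. The 8 called probes lay on 8 different chromosomes, and the share of members without overlap was 13.7% on strand F and 15.7% on strand R. These divisions are given on the 75th percentile scale, and they move with the scaling as above.

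**Figure D5:**
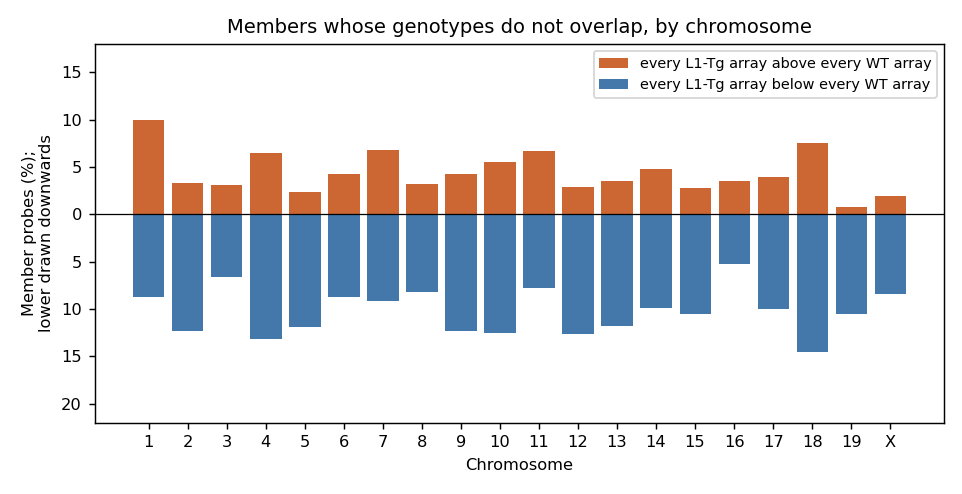
Percent of the members of each chromosome (x axis) whose pools did not overlap between genotypes (y axis), with every L1-Tg pool above every WT pool drawn upwards and the reverse drawn downwards. The upward bar exceeds the downward bar only on chromosome 1 (9.93% against 8.68%), where 14 of the 40 higher members lie between 175 and 180 Mb. The longest downward bar is on chromosome 18 (14.5%), on the 75th percentile scale.

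Long noncoding RNAs that carry a symbol were set beside the members, and whether the members are of the same class was not tested. Of 25 genes of a hand-written list that were tested under a RefSeq noncoding accession, the L1-Tg mean was above the WT mean for 9 and below it for 16, with a median log2 difference of -0.05 against -0.08 for members. The number past the adjusted threshold in limma was 0, the smallest adjusted p was 0.540, and 1 had an unadjusted p under 0.05. That gene was Snhg5, a small nucleolar RNA host, at -2.86, -3.28 and -3.27 in L1-Tg and -2.73, -2.86 and -2.46 in WT mice, a log2 difference of -0.45 at which L1-Tg 1 reached into the WT range. The genotypes did not overlap for 1 higher and 2 lower genes of the 25. The higher one was Norad, named after its values were seen, at 3.26, 3.27 and 3.31 in L1-Tg and 3.06, 3.06 and 3.20 in WT mice, a log2 difference of 0.17 (limma adjusted p = 0.620). Snhg7, another small nucleolar RNA host, was at -0.43, -0.42 and -0.68 against -0.32, -0.13 and -0.35, with no overlap and a log2 difference of -0.24 (limma adjusted p = 0.600). Kcnq1ot1, an imprinted antisense transcript, was at -0.70, -0.74 and -0.83 against -0.66, -0.57 and -0.27, with a log2 difference of -0.25 (limma adjusted p = 0.607) and no overlap between the genotypes.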

How the data were processed

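RNA of 6 liver pools was hybridized to 1-color Agilent arrays and read by the authors with Feature Extraction 10.10.1.1. The deposited processed signals are intensities on the linear scale, background-subtracted and detrended within the array, with no scaling from array to array. The deposited median signals of spot and background are intensities as well. Marks of 0 or 1 for spots well above background, saturated or non-uniform, deposited as scores, were used as filters. The matrix the authors deposited holds intensities equal to the processed signals times 1 factor per array (2.46 to 2.98), and how the factor was set is not given in the sources used here.

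Control spots were left out, non-uniform spots were treated as missing (7 members lacked a value), and the spots of 432 repeated probes were averaged. Signals were taken as log2 minus the 75th percentile of the array. Probes well above background on all 3 arrays of a genotype, 29433 with a value to test, entered 1 fit with no block (limma 3.58.1, R 4.3.3, moderated two-sided tests), and p-values were adjusted by Benjamini-Hochberg over these probes at a threshold of 0.05. RefSeq classes follow the accession prefix. Alternatives were quantile normalization, the array median, no scaling, the deposited matrix, normexp on median signals (offset 50), no filter, a filter on all 6 arrays, a trended prior, 1 probe per name, an unmoderated test with equal variances (the methods state such a test for single pairs of data and the index for the arrays), a replicate block, a threshold of 0.1, an index above 1 and each array left out. Normexp used the median in place of the mean signal, a choice made after the data were seen. The pipeline was tested on simulated data.

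The members, lists and tests were chosen with earlier results of these data known. The named probes were those past the threshold, the 8 largest differences in each direction among members bright on all arrays without overlap, the 5 largest limits in each direction, the 5 brightest loci, the 5 loci with the most members, the other probes of these loci and 3 probes on each side of the detection rule, and the text gives part of them. Regions named for runs of like members fall outside this rule. Precision is limited by the small number of arrays. Python 3.11.15 with pandas 2.3.3, NumPy 2.4.6, SciPy 1.17.1 and Matplotlib 3.10.9 served for counts and plots.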

Additional observations from a re-analysis of the deposited data

How the results depend on the processing

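Alternatives changed the number of calls more than the direction of the named probes, of which 371 values under the alternatives kept direction and side of the threshold, 8 passed in addition, 45 no longer passed and 0 reversed. The 8 members called higher became 3 without a filter on dim probes, 3 under a replicate block and 0 under the unmoderated test, and 3 to 6 with 1 array left out, where 0 lower members were called throughout. They were 7 with a filter on all 6 arrays or 1 probe per name, 9 to 11 under the other scalings, normexp and the trended prior, and 12 at a threshold of 0.1. Over all probes the 25 higher calls became 8, 0 and 8 without the filter, under the unmoderated test and under the block, and 6 to 18 with 1 array left out. The 2 lower calls became 1 without scaling, after normexp, in the deposited matrix, with the filter on all 6 arrays and with the trended prior, 0 without the filter, under the unmoderated test and under the block, and 0 to 1 with 1 array left out.

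Same-numbered arrays of the 2 genotypes shared a slide column, and the labels do not say whether the replicate numbers pair the pools. The deviations of same-numbered pools from their group means correlated at -0.15, 0.11 and 0.00 over all probes. Pools of different number correlated between -0.16 and 0.18. These few values cannot decide whether a pairing exists, and the block was used only as this alternative.

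Members without overlap, 258 higher and 579 lower, became 476 and 229 with the array median, where all probes tested went from 2056 and 2536 to 3257 and 782, and 427 and 3886 without the filter, where dim probes enter. The lower count was 377 after quantile normalization, 249 without scaling and 385 in the deposited matrix. With 1 array left out the counts were 382 to 504 higher and 726 to 1229 lower. By the index, 416 higher and 951 lower members became 641 and 624 after quantile normalization, 841 and 397 with the array median, 762 and 4409 without the filter and 221 and 435 at an index above 1, and the lower count was 461 without scaling. With 1 array left out they were 479 to 618 higher and 945 to 1521 lower. Neither overlap nor index was counted over all probes without the filter or with 1 array left out. The same holds for an index above 1. Nothing particular to members follows from the counts under these settings.

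The members' median difference was -0.019 after quantile normalization, 0.027 with the array median, -0.18 without the filter and -0.12 to -0.04 with 1 array left out. Between 2 probes of a name, r was 0.072 without the filter and was 0.21 to 0.29 with 1 array left out. The share with the same sign was 60.0% after quantile normalization, 61.4% with the array median, 59.9% without the filter and 60.5% to 66.8% with 1 array left out. Between strands, r was 0.037 after normexp, 0.060 without the filter, 0.026 with the filter on all 6 arrays and 0.07 to 0.11 with 1 array left out. The share was 54.9% after quantile normalization, 53.8% with the array median, 57.5% without scaling and 55.7% to 67.1% with 1 array left out. The cause of these changes was not tested. Probes near background limit which loci can be compared, and their levels below it have no order.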
